A study of Homo sapiens with 9 samples.

Results

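The genes examined here lie at the end of the short arm of human chromosome 19, between the telomere and the site at which Cas9 was directed into SUGP1, a gene for a nuclear protein with RNA-binding domains that acts in pre-mRNA splicing. A gene was included if it was on chromosome 19, ended below position 18300000 of GRCh38 and had a mean of at least 1 CPM (counts scaled to a library of 1e6) over the 9 libraries. Of 809 entries of the table on this stretch, 489 met the rule, out of 21071 genes tested in the whole series. They are called distal 19p genes below. The level and the position chose the members, and the stretch was proposed with its shift in SUGP1-edited cells already known, so the size of the shift is given as a description with no test.

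RNA was measured in U-2 OS cells, an osteosarcoma line with a rearranged genome, transfected with Cas9 mRNA and then with 1 of 3 synthetic guides. The NTC guide has no intended target, the crXCR1 guide directs a cut into the chemokine receptor gene XCR1 on the short arm of chromosome 3, and the crSUGP1 guide directs a cut into SUGP1 on chromosome 19. Each guide was used once in each of 3 independent experiments, which gives 9 libraries, and libraries of the same number were taken as 1 experiment. All cells received Cas9 and a guide, each library came from a mixed population in a flask and not from a clone, and a single guide per gene was sequenced. The labels give 50 nM of guide and 72 h for the plate format, and no other time was found for the flasks.

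The guide site places the cut in relation to the genes described. On the plus strand of chromosome 19 it lies at chr19:19297309-19297328 (GRCh38), in SUGP1 exon 8 of the 14 in transcript ENST00000247001.10, and Cas9 is placed to cleave after position 19297325. The site is shown with its PAM in capitals, between the 30 bases before and the 30 bases after it, and it occurs 1 time on the chromosome next to an NGG.
Before the site: ttccggaactcctccagcttctgtcggtag
SUGP1 guide site: tacttgtacccttggctattGGG
After the site: ctcatacagaaagctgcaaaggagagttgg
The nearest of the 489 genes ended 1.016 Mb from the cut. The centromere lies on the other side of the cut, so every one of these genes is on the fragment that a break at this site would leave without a centromere.

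A double-strand break made by Cas9 is mostly resealed with a small insertion or deletion, which alters the cut gene alone. In dividing cells, chromosome arms beyond a break can also be lost, duplicated or joined to another chromosome. For most genes the mRNA level follows the number of gene copies, so a change in copies of an arm appears as many small changes in 1 direction over neighbouring genes, while genes under feedback control can hold their level. DNA copies were not measured here, and in RNA from a whole culture, fewer cells with a full arm and less RNA from the arm in every cell cannot be told apart.

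The libraries held 68712738 to 107952835 counts. SUGP1 was at 6.52 to 7.87 CPM in the crSUGP1 libraries and at 28.2 to 31.6 CPM in the 6 control libraries, so the targeted gene was lower in each library labelled crSUGP1. Of markers of other cell types, CD3E and HBB were at 0 in every library, while ITGAX was at 4.65 to 6.46 CPM and KRT14 at 3.17 to 10.3 CPM. VIM was at 2220 to 2720 CPM and COL1A1 at 553 to 1020 CPM. TWIST1 (at most 0.014 CPM) and COL1A2 (at most 0.215 CPM), both listed as mesenchymal markers, were nearly absent. The summed level of the mesenchymal list was 4030 to 4270 CPM in crSUGP1, 4290 to 4760 CPM in NTC and 4340 to 4630 CPM in crXCR1, and its part in the results was not tested. The summed epithelial (8.65 to 16.4 CPM) and endothelial (3.22 to 5.93 CPM) lists were low in all 9 libraries, with overlap between the guides. The leukocyte list stood at 5.33 to 6.49 CPM in crSUGP1, 5.72 to 6.16 CPM in NTC and 6.53 to 7.09 CPM in crXCR1, so that the crXCR1 libraries were above the others. ITGAX made up most of that sum. Libraries differed by experiment, and in experiment 3 the difference between crSUGP1 and the controls moved with the GC content of the transcripts on all chromosomes, which is described after the results it touches.

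Distal 19p genes were lower in the crSUGP1 libraries as a group. Their summed counts made up 2.60, 2.58 and 2.35% of all counts in the 3 crSUGP1 libraries, 2.90, 2.73 and 2.92% in the NTC libraries, and 2.89, 2.82 and 2.97% in the crXCR1 libraries. The groups did not overlap, with the highest crSUGP1 library below the lowest control. The median log2 fold change over the 489 genes was -0.183 against NTC, or 88.1% of the NTC level, and -0.189 against crXCR1, or 87.7% of that level. The middle of the distribution (first to last quartile) ran from -0.284 to -0.114 against NTC. A lower estimate was found against NTC for 457 of the 489 genes (93.5%), and for 462 (94.5%) when crXCR1 was the control. Over all 21071 genes tested the medians were -0.004 and -0.003, with 51% and 50.8% lower.

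The shift ended at the cut. The 721 genes of the rest of chromosome 19, centromeric of SUGP1 and at 1 CPM or more, had a median of 0.011 against NTC and 0.010 against crXCR1. Between position 18300000 and the cut lay 34 further genes, outside the rule, with medians of -0.190 and -0.193. Taken chromosome by chromosome, with distal 19p and distal 3p left out, the medians ran from -0.021 to 0.030 against NTC. In cells given the crXCR1 guide, distal 19p genes had a median of 0.012 against NTC, and 0 of them were called by edgeR, with 2 at an unadjusted p under 0.05 and 0 called by DESeq2. The 215 genes of distal 3p, telomeric of the XCR1 cut, had a median of -0.185 in crXCR1 against NTC and of 0.028 in crSUGP1 against NTC. Each of the 2 stretches thus had a negative median with the guide directed to it, and whether the 2 medians differ was not tested.

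**Figure D1:**
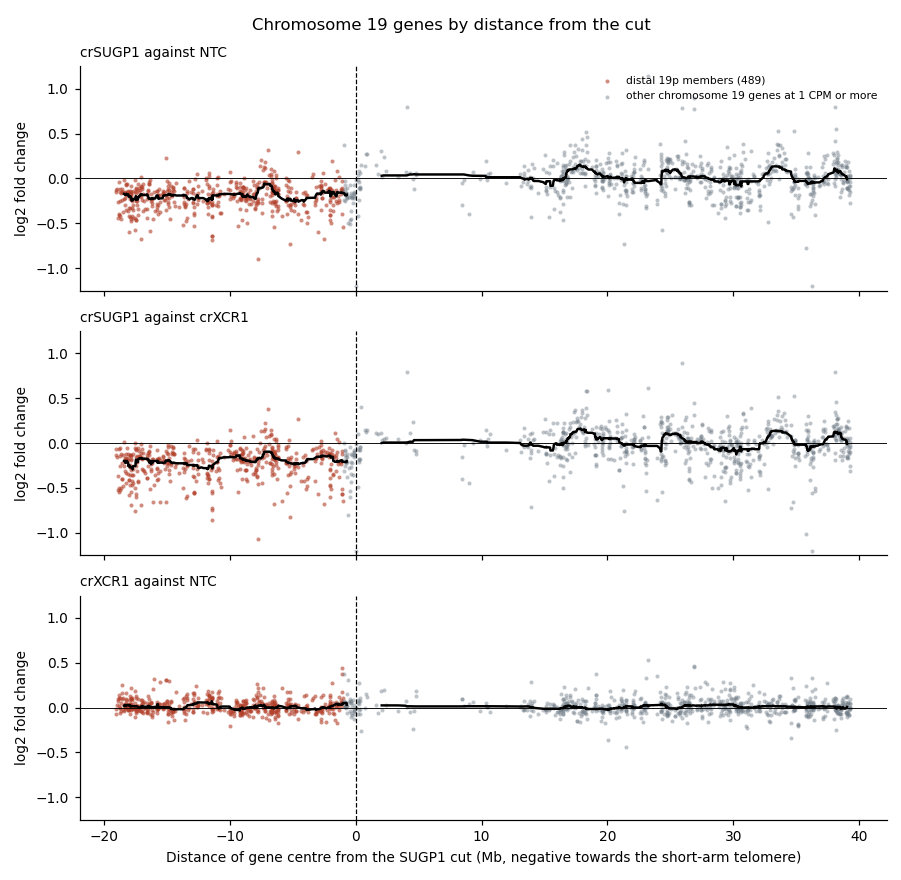
Log2 fold change of each chromosome 19 gene at 1 CPM or more (y axis) against the distance of its centre from the SUGP1 cut in Mb (x axis), for the 3 comparisons. Points are genes, red for the 489 distal 19p genes and grey for the others, black lines are running medians of 41 genes on each side, the dashed line is the cut, and values beyond 1.2 are drawn at 1.2. In both crSUGP1 panels the running median lies below 0 along the arm and near 0 beyond the cut, and in crXCR1 against NTC it lies near 0 throughout.

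The median was negative in every stretch of the arm. Divided by end position into 6 stretches, 5 of 3 Mb and a last one to 18.3 Mb, the genes had medians against NTC of -0.182 (107 genes nearest the telomere), -0.209 (72 genes), -0.193 (64 genes), -0.176 (84 genes), -0.150 (86 genes) and -0.179 (76 genes nearest the cut). Against crXCR1 they were -0.199, -0.223, -0.266, -0.175, -0.167 and -0.166 in the same order. The stretches differed most in experiment 3, where the median against crXCR1 was -0.448 at 6 to 9 Mb and -0.169 at 12 to 15 Mb, while in experiment 1 the 6 medians against crXCR1 ran from -0.154 to -0.142. Lower estimates made up 99.1% of the genes of the first stretch and 84.9% of those ending between 12 and 15 Mb. All 4 genes that were higher in every same-experiment comparison ended between 12 and 15 Mb. Protein coding genes (410 members, median -0.178) and other biotypes (78 members, median -0.215) were both lower against NTC, and 1 member was not matched to the annotation. On other chromosomes the medians of those classes were 0.015 and -0.022. By level, the medians were -0.163 for the 108 genes at 1 to 5 CPM, -0.225 for the 126 at 5 to 20 CPM, -0.179 for the 158 at 20 to 80 CPM and -0.166 for the 97 at 80 CPM or more. Genes of other chromosomes had medians of -0.039, -0.002, 0.027 and 0.021 in the same order.

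Few members were changed beyond the spread of the libraries taken 1 gene at a time. At an adjusted p of at most 0.05 and a log2 fold change of at least 0.5 in size, edgeR without the experiment in the fit called 2 members lower against NTC (0.456% of all genes tested were so called) and 3 against crXCR1 (0.584%). At any fold, 10 were lower against NTC (0.755% of all genes) and 13 against crXCR1 (0.968%). No member was called higher, against 0.503% and 0.46% of all genes, while 1 and 2 members were higher at an unadjusted p under 0.05, and DESeq2 called 0 higher in either comparison. With the experiment as a replicate block, which takes out what the libraries of 1 experiment share, edgeR called 16 members lower at the fold threshold against NTC (1.85% of all genes) and 38 against crXCR1 (3%). At any fold with the block, 207 members (42.3%) were lower against NTC, where 8.96% of all genes were, and 257 (52.6%) against crXCR1, where 11.7% were. Higher with the block were 1 member against NTC (6.72% of all genes) and 2 against crXCR1 (9.99%).

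Libraries were also compared with no model. In 151 members (30.9%) all 3 crSUGP1 libraries lay below all 6 control libraries, against 6.69% of all genes tested, and in 1 member, AC022415.2, all 3 lay above, against 6.36% of all genes. Each gene also has 6 ratios of a crSUGP1 library to a control library of the same experiment. All 6 were below 1 in 280 members (57.3%, against 17.5% of all genes), 5 were in 107 members, 4 in 57, 3 in 21, 2 in 19 and 1 in 1 member. All 6 were above 1 in 4 members (17% of all genes), which were AC022415.2, AC008770.4, ZNF442 and ZNF333. Of these, AC022415.2 and AC008770.4 overlap each other on the same strand and may share reads.

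The size of the shift differed between experiments. Against NTC the median log2 ratio of same-experiment libraries was -0.173 in experiment 1, -0.075 in experiment 2 and -0.322 in experiment 3, and against crXCR1 it was -0.146, -0.132 and -0.335. The share of members with a ratio below 1 was 92% in experiment 1, 69.5% in experiment 2 and 91.4% in experiment 3 against NTC. In the same comparison the rest of chromosome 19 stood at 0.022, 0.062 and -0.061. Taken relative to those genes, distal 19p genes were lower by 0.195, 0.137 and 0.261 on the log2 scale against NTC (mean -0.198 ± 0.062, SD, n = 3) and stood at -0.185, -0.167 and -0.270 against crXCR1 (mean -0.207 ± 0.055, SD, n = 3). Distal 19p genes were thus the lower of the 2 stretches in each experiment and against each control, by the most in experiment 3.

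**Figure D2:**
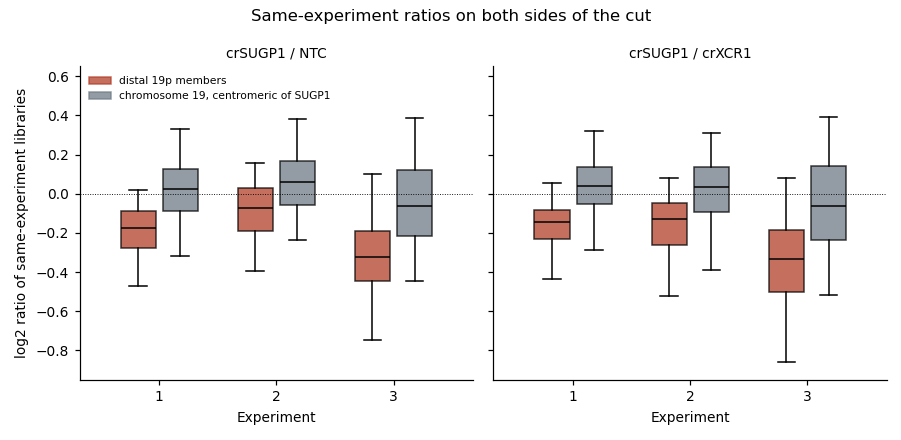
Log2 ratio of the crSUGP1 library to the NTC library (left) or the crXCR1 library (right) of the same experiment (y axis) in experiments 1 to 3 (x axis). Boxes are quartiles with the median as a line and whiskers from the 5th to the 95th percentile over genes, red for the 489 distal 19p genes and grey for the 721 genes centromeric of SUGP1. The red median lies below the grey one in each of the 6 pairs, and both are lowest in experiment 3.

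The differences between experiments moved with the GC content of the transcripts. Distal 19p genes are rich in GC, with a median of 60.09% in the longest transcript (488 genes matched), against 55.98% for the rest of chromosome 19 and 47.96% for the genes of other chromosomes. In experiment 3, crSUGP1 against NTC, the median ratio of genes on other chromosomes was 0.091 below 50% GC and -0.311 at 65% GC or more. For distal 19p genes the medians in those classes were -0.007 and -0.458. In experiment 2 the slope against NTC ran the other way, from -0.020 to 0.103 on other chromosomes. Against crXCR1 in experiment 2 it did not, with 0.019 and -0.015 in those classes. Within each of 5 GC classes and each experiment, distal 19p genes lay below genes of other chromosomes by a difference of medians between -0.238 and -0.098 against NTC, and between -0.244 and -0.111 against crXCR1. When the trend with GC was taken out of each library, fitted on genes outside chromosome 19 and distal 3p, the medians against NTC became -0.155, -0.125 and -0.176 in experiments 1 to 3, and those against crXCR1 -0.139, -0.129 and -0.176. The median fold change was then -0.159 against NTC (89.6% of its level) and -0.144 against crXCR1 (90.5%), with 91.8% and 90.6% of members lower. This correction was chosen after the trend had been seen, and what made the libraries differ by GC was not tested.

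Among the most abundant members, EEF2 and PTBP1 had values near the arm medians over the 3 experiments and CALR had values near 0. EEF2, the elongation factor that moves the ribosome along mRNA, was at 2054, 2022 and 1754 CPM in the crSUGP1 libraries, at 2194, 2158 and 2171 CPM in NTC and at 2303, 2193 and 2204 CPM in crXCR1. Every crSUGP1 library was below every control, and the log2 fold change was -0.16 against NTC (edgeR adjusted p = 0.349, and 0.0508 with the block) and -0.20 against crXCR1 (0.202, and 0.0152 with the block). PTBP1, a repressor of exon inclusion, was at 577, 566 and 461 CPM against 546 to 633 CPM, which overlap, and it passed with the block against NTC alone. Without crSUGP1 replicate 3 the log2 fold change against NTC went from -0.16 to -0.10 for EEF2 and from -0.15 to -0.06 for PTBP1, and that of PTBP1 against crXCR1 went from -0.13 to -0.04. CALR, the calcium-binding chaperone of the endoplasmic reticulum, was at 971, 942 and 1011 CPM in crSUGP1, 1019, 950 and 942 CPM in NTC and 951, 930 and 960 CPM in crXCR1. Its groups overlapped, and its log2 fold changes were 0.01 and 0.04.

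To ask which members left the shared shift, each was tested against the arm median in place of 0, with the median taken from the same libraries. Without the block, edgeR called 1 member below the median against both controls (0.65% of all genes tested, for which 0 was the null outside the arm), and this was CNN1. No member was called above it (0.28% of all genes), with 12 above at an unadjusted p under 0.05 against both controls. With the block, 23 members lay below (4.7%, against 6.43% of all genes) and 18 above (3.68%, against 5.12%). Both shares are under those of all genes. Of these, 22 of the 23 and 17 of the 18 were also called with the block after the GC correction. In that fit 40 members lay below (8.18%, against 9.01% of all genes) and 39 above (7.98%, against 8.12%), which are near the shares of all genes.

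CNN1 encodes calponin, a protein of actin filaments found chiefly in smooth muscle. It was at 8.27, 7.47 and 8.18 CPM in the crSUGP1 libraries, at 14.4, 13.8 and 16.6 CPM in NTC and at 16, 14.3 and 19.95 CPM in crXCR1. Each crSUGP1 library was thus well below the lowest control. The log2 fold change was -0.90 ± 0.13 (SE) against NTC (edgeR adjusted p = 0.00905) and -1.07 ± 0.13 against crXCR1 (edgeR adjusted p = 0.00351), and CNN1 departed from the arm median at an edgeR adjusted p of 0.0297 and 0.0124. The call of a lower level against NTC was lost without crSUGP1 replicate 2, and the call of a departure was lost without any 1 NTC or crSUGP1 library and without crXCR1 replicate 1. It is the member furthest below the others, and the 250 bases before its start (chr19:11538601-11538850, plus strand, RefSeq, GRCh38.p14) are given with GC boxes (GGGCGG on either strand) in capitals.
CNN1: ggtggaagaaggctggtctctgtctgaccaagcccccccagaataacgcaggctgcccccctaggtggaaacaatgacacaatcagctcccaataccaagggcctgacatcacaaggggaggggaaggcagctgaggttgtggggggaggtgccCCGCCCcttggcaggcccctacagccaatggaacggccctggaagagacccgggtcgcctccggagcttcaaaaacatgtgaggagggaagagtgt

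CIRBP encodes a cold-inducible RNA-binding protein and was the other member called against both controls at the fold threshold. It was at 78.5, 70.7 and 81.8 CPM in crSUGP1, against 107 to 128 CPM in the 6 control libraries, with no overlap. The log2 fold change was -0.60 ± 0.09 against NTC (edgeR adjusted p = 0.0131) and -0.58 ± 0.09 against crXCR1 (edgeR adjusted p = 0.0182), with an adjusted p for the departure from the arm of 0.0699 and 0.0876 without the block and of 2.74e-05 and 6.58e-05 with it. Without the block, its calls were lost when crSUGP1 replicate 1 or 2 was left out, that against NTC also without NTC replicate 1, and that against crXCR1 without any 1 crXCR1 library. An antisense gene, CIRBP-AS1, overlaps it, and the strand of counting is not stated, so their reads cannot be told apart. At 0.978 CPM that gene was just under the level required of members. The 250 bases before the start of CIRBP (chr19:1269082-1269331, plus strand, RefSeq, GRCh38.p14) hold 4 GC boxes, in capitals, of which 2 overlap.
CIRBP: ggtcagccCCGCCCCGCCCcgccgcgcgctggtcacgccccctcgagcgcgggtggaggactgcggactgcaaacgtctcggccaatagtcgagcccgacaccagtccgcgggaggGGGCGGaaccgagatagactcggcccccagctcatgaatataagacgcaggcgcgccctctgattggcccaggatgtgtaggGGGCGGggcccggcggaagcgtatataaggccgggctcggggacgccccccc

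COL5A3, a chain of fibrillar collagen V, was called against crXCR1 alone, at -0.54 ± 0.11 (edgeR adjusted p = 0.0447), and its log2 fold change against NTC was -0.53 ± 0.11 (edgeR adjusted p = 0.0511). It stood at 6.37, 5.24 and 5.03 CPM in crSUGP1 and at 7.56 to 8.67 CPM in the controls, without overlap. The call against crXCR1 was lost without any 1 library other than crSUGP1 replicate 1, and with the block COL5A3 passed against both (edgeR adjusted p = 0.000564 and 0.000363). That the values for the 2 controls differ in their call does not show that the controls differ.

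Of the 8 lowest members without overlap of the groups, the 6 not yet described passed the test with the block alone. Other members without overlap did so too, and some of them are named below. JUND, a subunit of the AP-1 transcription factor, was at 65.4, 59.1 and 48.7 CPM in crSUGP1 and at 66.8 to 107 CPM in the controls, with log2 fold changes of -0.54 and -0.65 (edgeR adjusted p = 0.182 and 0.096, and 0.00592 and 0.00117 with the block). It is also the member nearest the cut. AMH, the anti-Müllerian hormone, was at 4.53, 4.50 and 4.29 CPM against 5.53 to 8.19 CPM, with log2 fold changes of -0.67 and -0.69. MAST1, a microtubule-associated kinase, was at 5.23, 5.80 and 6.01 CPM against 7.34 to 10.9 CPM, with -0.55 and -0.68, and overlaps HOOK2 and RTBDN on the other strand. PALM3, a paralemmin, was at 2, 2.14 and 2.39 CPM against 2.79 to 5.24 CPM, with log2 fold changes of -0.73 and -0.82. TGFBR3L and AC005256.1 complete the 8 lowest of this kind, with log2 fold changes of -0.64 and -0.57 against NTC and of -0.75 and -0.76 against crXCR1. The block changed the call of all 6 of these genes in both comparisons, and with the block their adjusted p lay between 0.000112 and 0.00728. Single libraries of experiment 3 carried part of these values: without NTC replicate 3 the log2 fold change against NTC was -0.47 for PALM3 and -0.38 for TGFBR3L, and without crXCR1 replicate 3 that of PALM3 against crXCR1 was -0.52.

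Of the lower members named so far, CNN1, CIRBP, COL5A3, AMH, MAST1, PALM3 and TGFBR3L departed below the arm with the block. JUND and AC005256.1 did not depart from it against both controls. Others that departed below, named here after their values were seen, included KLF2, PRR36, NWD1 and SAFB2. KLF2 is a transcription factor induced by flow in endothelium. SAFB2 is a nuclear matrix protein that binds DNA and RNA and a paralog of its neighbour SAFB. SAFB2 was at 66.9, 63.2 and 48.1 CPM in crSUGP1 against 76.4 to 90.8 CPM in the controls, and departed with the block by -0.34 against NTC (edgeR adjusted p = 0.00153) and by -0.30 against crXCR1 (edgeR adjusted p = 0.00265). KLF2 was at 8.46, 9.51 and 4.83 CPM in crSUGP1. In the controls it ranged from 9.39 to 13.4 CPM, so that crSUGP1 of experiment 2 lay above crXCR1 of experiment 3, while in each experiment the crSUGP1 library was the lowest. NWD1 was at 0.821, 0.806 and 1.81 CPM in crSUGP1 and at 1.36 to 2.36 CPM in the controls, which overlap. PRR36 was at 7.59, 6.47 and 11.7 CPM in crSUGP1, 11.8, 8.52 and 21.1 CPM in NTC and 10.6, 11.8 and 24.1 CPM in crXCR1. Its library of experiment 3 was the highest for each of the 3 guides. Single libraries moved these genes too. The log2 fold change of KLF2 went from -0.60 to -0.37 against NTC and from -0.57 to -0.34 against crXCR1 without crSUGP1 replicate 3. For NWD1 it went from -0.67 to -1.16 and from -0.68 to -1.16 without that library, and to -0.43 against NTC without NTC replicate 3. For PRR36 it went from -0.69 to -0.25 against NTC without NTC replicate 3 and from -0.86 to -0.38 against crXCR1 without crXCR1 replicate 3.

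The genes at the upper end were few. AC022415.2, annotated as protein coding and overlapping ZNF844 and AC008770.4 on its own strand and ZNF20 on the other, was at 7.21, 7.98 and 8.12 CPM in crSUGP1, 6.29, 7.15 and 7.07 CPM in NTC and 6.67, 7 and 6.36 CPM in crXCR1, so that every crSUGP1 library was above every control. Its log2 fold changes were 0.19 ± 0.09 and 0.22 ± 0.09, and it departed from the arm median with the block (edgeR adjusted p = 0.00304 and 0.000999) and not without it (0.0964 and 0.0606). ZNF844 and AC008770.4 also departed above the arm with the block, and reads may be shared between these overlapping genes. ZNF333, a zinc finger protein (named after its values were seen), was at 9.90, 9.47 and 12.6 CPM in crSUGP1 against 8.29 to 9.60 CPM in the controls. The control crXCR1 of experiment 3 lay above crSUGP1 of experiment 2, while in each experiment the crSUGP1 library was the highest of the 3. With the block it was higher than in both controls (edgeR adjusted p = 0.0128 and 0.018) and departed from the arm by 0.48 and 0.46 (edgeR adjusted p = 0.000409 and 0.00046). Its log2 fold changes of 0.30 and 0.26 were 0.16 and 0.12 without crSUGP1 replicate 3. ZNF442 was at 1.43, 1.82 and 2.25 CPM in crSUGP1 and at up to 1.76 CPM in the controls, with overlap, and departed with the block (edgeR adjusted p = 0.0197 and 0.00642). Its log2 fold changes of 0.32 and 0.38 were 0.14 and 0.21 without crSUGP1 replicate 3. Reads of near-identical zinc finger genes may have been placed with either copy, so these values are uncertain. The bases before the start of ZNF442, the member with the highest mean log2 fold change, are given beside the others (chr19:12365684-12365933, minus strand, RefSeq, GRCh38.p14, GC box in capitals).
ZNF442: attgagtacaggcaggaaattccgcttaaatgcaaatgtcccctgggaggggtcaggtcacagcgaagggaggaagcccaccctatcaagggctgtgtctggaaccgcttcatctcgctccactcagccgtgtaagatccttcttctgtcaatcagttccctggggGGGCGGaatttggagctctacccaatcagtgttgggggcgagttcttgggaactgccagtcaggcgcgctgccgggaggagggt

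GC boxes were found in 80.3% of the promoters of the 330 members that the table of promoters held, against 42.3% of all 27305 promoters, each read over the 250 bases before the start. They were in 13 of 15 matched members departing below the arm with the block and in 12 of 13 departing above. The median GC content of the promoters was 71.2% and 61.6% in these groups and 66.8% over the 330 members.

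JUNB, CDC37 and SF3A2 had estimates near 0. JUNB, another AP-1 subunit, was at 53.3, 55.4 and 58.4 CPM in crSUGP1, 50.6, 41.6 and 65.9 CPM in NTC and 47.5, 48.9 and 65.6 CPM in crXCR1, with log2 fold changes of 0.08 ± 0.17 and 0.04 ± 0.17. Within experiments 1 and 2 the crSUGP1 library was the highest, and within experiment 3 it was the lowest. CDC37, the cochaperone that brings kinases to HSP90, was at 231, 229 and 167 CPM against 171 to 224 CPM in the controls, with crSUGP1 libraries on both sides of that range. SF3A2, a subunit of the splicing factor SF3A, was at 115, 109 and 90.4 CPM against 100 to 111 CPM. With the block, all 3 and CALR departed upward from the arm median against both controls (edgeR adjusted p from 0.00173 to 0.0452), and without the block none of the 4 did, with an adjusted p from 0.0884 to 0.673. Each overlaps a gene on the other strand (HOOK2, PDE4A, PLEKHJ1 and, for CALR, AC092069.1).

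**Figure D3:**
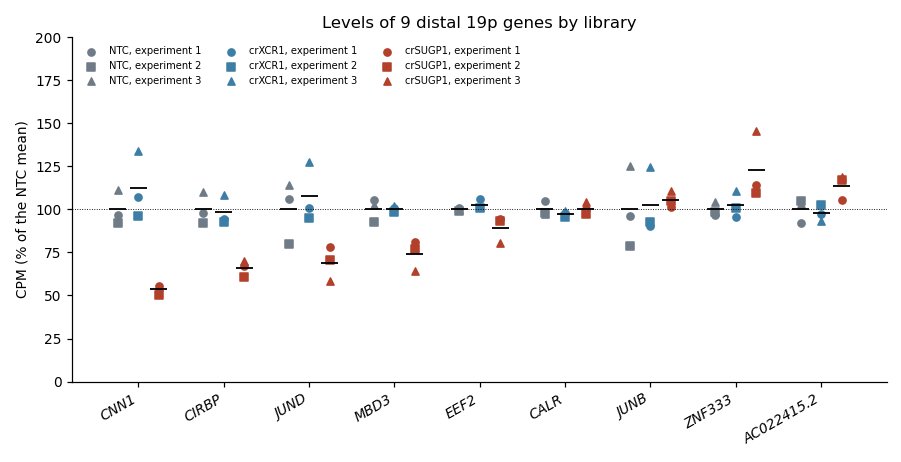
Levels of 9 distal 19p genes as a percentage of the mean CPM of the 3 NTC libraries (y axis) by gene (x axis), in NTC (grey), crXCR1 (blue) and crSUGP1 (red). Symbols mark the experiment and lines the mean of 3 libraries. The crSUGP1 libraries of CNN1, CIRBP, JUND, MBD3 and EEF2 lie below every control, those of CALR and JUNB lie among the controls, and those of AC022415.2 lie above every control.

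Members were grouped by function. The counts that follow stand beside 93.5% and 94.5% of all members lower by estimate (51% and 50.8% of all genes), and beside 42.3% and 52.6% of members (8.96% and 11.7% of all genes) lower with the block, against NTC and crXCR1. Of 12 genes for ribosomal proteins and translation factors, 12 had lower estimates against NTC, with a median of -0.151, and 3 passed edgeR with the block (7 against crXCR1). The lowest was DHPS, which makes the deoxyhypusine intermediate on eIF5A, at 44.4, 46.1 and 44.2 CPM in crSUGP1 and 50.8 to 57.2 CPM in the controls, without overlap, and it overlaps WDR83 on the other strand. The highest was EIF3G, a subunit of the initiation factor eIF3, with a log2 fold change of -0.09 ± 0.11 against NTC. All 20 mitochondrial genes were lower by estimate, with a median of -0.230, and 13 passed with the block (15 against crXCR1). Among them SLC25A23, a calcium-regulated carrier for ATP and phosphate, was at 59.5, 61.2 and 64.6 CPM against 70.6 to 91.5 CPM in the controls. LONP1, the matrix protease, had a log2 fold change of -0.27 that passed with the block alone (edgeR adjusted p = 0.43, and 0.0031 with it), and without crSUGP1 replicate 3 it was -0.14 against NTC and -0.10 against crXCR1. TIMM44, of the import motor, had a log2 fold change of -0.11 that passed in neither fit.

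Genes for splicing and RNA-binding proteins had a median of -0.153 over 20 members, and 19 were lower by estimate. With the block 11 passed against NTC and 9 against crXCR1. Chromatin and DNA methylation genes had a median of -0.233 over 16 members, all lower by estimate, and 11 and 13 passed with the block. MBD3, a subunit of the NuRD complex, was at 135, 128 and 107 CPM in crSUGP1 and 155 to 176 CPM in the controls, with log2 fold changes of -0.44 and -0.44 (edgeR adjusted p = 0.0528 and 0.0473, and 0.000403 and 0.000286 with the block). The call against crXCR1 without the block was lost when any 1 library was left out. DNMT1, the maintenance DNA methyltransferase, was at 246, 226 and 203 CPM in crSUGP1 and at 243 to 277 CPM in the controls, and its log2 fold change of -0.24 against NTC passed with the block alone (edgeR adjusted p = 0.255, and 0.00238 with it). SIN3B, a corepressor scaffold, was the highest of that list at -0.06. The list of transcription factors and other transcriptional regulators held 19 genes outside the ZNF and ZFP names, KLF2, KLF16 and ZBTB7A among them. Its median was -0.224, with 18 lower by estimate and 10 and 12 past the test with the block. TLE5, a corepressor, was the most abundant at -0.23 against NTC. TLE5 passed with the block alone (edgeR adjusted p = 0.00794 and 0.00135), and without NTC replicate 3 its value was -0.15.

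Over 21 kinases, receptors and other signalling genes the median was -0.170, and 10 passed with the block against NTC and 12 against crXCR1. Over 13 genes of DNA replication, repair and mitosis the median was -0.178, with all 13 lower by estimate and 5 and 10 past the test with the block. UHRF1, which recruits DNMT1 to newly replicated DNA, had the lowest value of the latter (-0.31 and -0.27, edgeR adjusted p = 0.000563 and 0.00123 with the block), LMNB2 of the nuclear lamina was the most abundant (-0.18, or -0.11 without crSUGP1 replicate 3) and BABAM1 of the BRCA1-A complex the highest (-0.11). The secretory and endosomal list (25 genes) had a median of -0.147, and 11 passed with the block against each control. Its lowest member was RAB3D, a regulator of exocytosis, at 4.78, 4.96 and 4.58 CPM against 5.75 to 6.36 CPM. The cytoskeletal list (17 genes) had a median of -0.168, with 7 and 9 past the test with the block, and included TPM4, a tropomyosin, at 202, 199 and 195 CPM against 218 to 255 CPM, and ARHGEF18, a RhoA exchange factor, at -0.02. The block changed the call of DHPS, SLC25A23, UHRF1, LMNB2, RAB3D and TPM4, each of which passed with it in both comparisons and in neither without it. TGFBR3L, EIF3G, LONP1, TIMM44, MBD3, TLE5, RAB3D and TPM4 also overlap a gene on the other strand, whose reads cannot be told apart from theirs.

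Before the GC correction, 2 groups had medians nearer to 0 over the 3 experiments. The 11 interferon and inflammatory genes had a median of -0.033 against NTC and of -0.087 against crXCR1, with 8 and 9 lower by estimate, and 2 and 4 passed with the block. TYK2, a Janus kinase, was at 78.1, 76.5 and 69.1 CPM in crSUGP1 and 79.3 to 87.8 CPM in the controls, without overlap, and its departure from the arm median was 0.02 against NTC. TYK2 was lower with the block alone (edgeR adjusted p = 0.0385 and 0.0127). CD70, a ligand of the TNF family, had a log2 fold change of -0.19 against NTC and -0.43 against crXCR1, and EBI3, a cytokine subunit, 0.23 and -0.09. CD70 passed with the block against crXCR1 (edgeR adjusted p = 0.000522), with a value of -0.28 there without crXCR1 replicate 3, and EBI3 passed in neither comparison. The 44 zinc finger genes, called the family below, were those with names beginning with ZNF or ZFP and a number. This name rule also took in ZNF561-AS1, ZNF433-AS1 and the joint entries ZNF559-ZNF177 and ZNF625-ZNF20. The 44 had a median of -0.087 against NTC and -0.097 against crXCR1, and 9 and 10 of them were higher by estimate. With the block, 5 of the 44 were lower and 1 higher in each comparison, and the share lower is near that of all genes and under that of all members. ZNF121 was the most abundant (-0.22, edgeR adjusted p = 0.402, and 0.0205 with the block) and ZNF414 the lowest (-0.39 and -0.44, edgeR adjusted p = 0.147 and 0.0909, and 0.00691 and 0.00232 with the block). Zinc finger genes stood higher elsewhere too, with a median against NTC of 0.110 for the 178 on the rest of chromosome 19 and of 0.033 for the 254 on other chromosomes. The distal 19p genes outside the family had a median of -0.191 (445 genes), and the centromeric genes outside it -0.013 (543 genes). By experiment, the family on distal 19p stood at -0.126, -0.145 and -0.001 against NTC and the other members at -0.175, -0.068 and -0.342, so that the family was the lower of the 2 in experiment 2 and the gap was widest in experiment 3. The 44 are low in GC, with a median of 42.7%, and after the GC correction their median was -0.120 against NTC, beside -0.161 for the other members and 0.083 for the family on the rest of chromosome 19. Against crXCR1 the corrected medians were -0.131 for the 44, -0.145 for the other members and 0.075 for the family on the rest of chromosome 19. The translation list (-0.120 and -0.118 against NTC and crXCR1) and the secretory list (-0.117 and -0.095) were then no lower than the family. The mitochondrial list stood at -0.189 and -0.178, and the interferon list stayed nearest to 0, at -0.019 and -0.038.

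**Figure D4:**
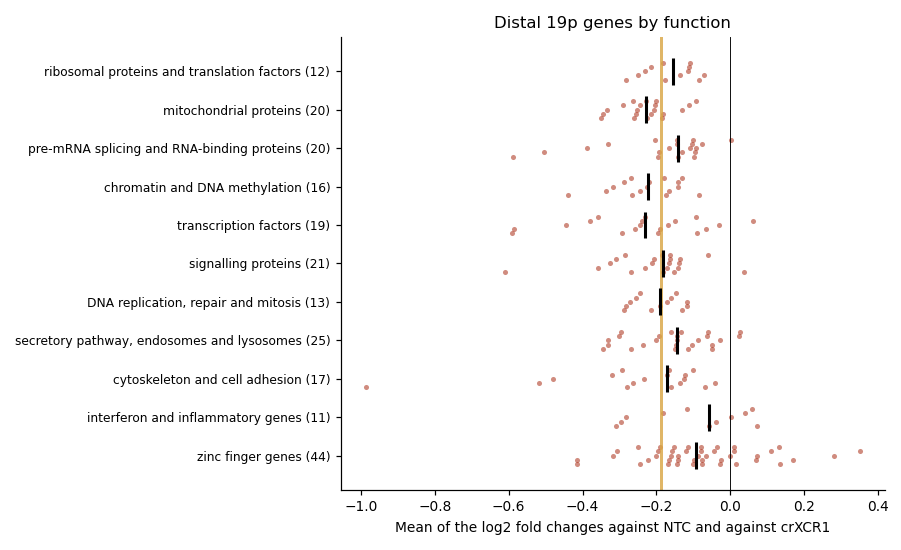
Mean of the log2 fold changes against NTC and crXCR1 (x axis) for the members of 11 functional groups (y axis, number of members in brackets). Points are genes, spread vertically for clarity, black bars are medians, and the yellow band marks the 2 medians over all 489 genes. The bars of 9 groups lie close to the band, and those of the interferon and inflammatory genes and of the zinc finger genes lie between the band and 0. The values are without the GC correction.

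Genes on either side of the thresholds of the rule were as follows. Just inside the position limit lay AC008397.2 (-0.14 against NTC, -0.51 against crXCR1) and JUND, and just outside it LSM4 (-0.14 and -0.19) and PGPEP1 (-0.24 and -0.32). Just inside the level limit lay CELF5 at 1.04 CPM (-0.15 and -0.46) and ACP5 at 1.06 CPM (-0.23 and -0.46), and just outside it CIRBP-AS1 (-0.47 and -0.29) and AC020904.3 (-0.03 and 0.07).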

How the data were processed

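Libraries of polyA RNA came from 9 flasks of U-2 OS cells. After trimming, the authors ran STAR 2.7.9a against GRCh38 and deposited raw gene counts, made with SeqMonk from read pairs mapping to exons. The strand used in counting is not given in the sources used here. The submitters' processing notes also name FastQC 0.11.5, Trim Galore 0.6.7, cutadapt 2.4 and DESeq2 1.32.0. Of 38179 entries, 33 repeats of a name with identical counts or with 0 counts were dropped. A gene was tested where log2 CPM exceeded -2 in any library, and the 21071 such genes were fitted with edgeR 4.0.16 (quasi-likelihood, TMM, R 4.3.3) over all 9 libraries with condition as the term and 6 residual degrees of freedom, with Benjamini-Hochberg adjustment over all genes. DESeq2 1.42.0 was the alternative tool. Per-library levels are TMM-scaled CPM, and ratios used a pseudocount of 0.5 counts. For the departure from the arm, the offsets of the members were moved by the arm medians of the same fit. Only the fit and departure test without the block were run on simulated counts, with no experiment effect or GC trend. The fits with the block or with the GC correction were not tested in this way. Transcript GC and biotype came from GENCODE v44 on the same build, which matched 21002 of the genes tested.

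The paper gives 3 independent experiments that each held all guides, and the numbers in the labels were taken to mark them. Deviations of same-numbered libraries from their group means correlated at 0.482 to 0.893 over 9 pairs, against -0.843 to 0.641 over 18 other pairs (16794 genes), so a fit with the replicate block (4 residual degrees of freedom) is given where it changes a call. Replicates differed by more than sampling noise. Depth was 68712738 to 107952835 counts per library, and CELF5, the member of lowest mean level, rested on 55 to 178 counts per library.

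Genes were named by rule. The members, the functional lists and the named genes (called, the 8 lowest and highest without overlap, departing, the 5 most abundant, and the most abundant, lowest and highest of each list) were chosen with earlier results of these data known. Alternatives were the block, other scaling, filters and member rules, fits to 6 libraries, DESeq2, and leaving out libraries or experiments. The GC correction was chosen later, once its trend was visible. Some named genes are not reported here.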

Additional observations from a re-analysis of the deposited data

How the results depend on the processing

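Both arm medians of crSUGP1 stayed negative, and moved by less than 1 SD of the experiments, in every alternative run. Leaving out a library or an experiment gave -0.246 to -0.131 against NTC, -0.236 to -0.146 against crXCR1 and -0.017 to 0.035 for crXCR1 against NTC. Counts of calls depended on the fit. Genes called at the fold threshold (2 against NTC, 3 against crXCR1) numbered 16 and 38 with the replicate block, 4 and 6 with a minimum of 1 CPM for every gene, 7 and 17 with DESeq2, 11 and 22 with GC correction and block, 4 against NTC with GC correction alone, and 0 to 9 and 0 to 14 with a library or experiment left out. Genes lower at any fold (10 and 13) numbered 207 and 257 with the block, 20 and 20 with the 1 CPM minimum, 2 and 4 in fits to 6 libraries, 55 and 72 with DESeq2, 27 and 24 with GC correction, 255 and 251 with GC correction and block, and 0 to 74 and 0 to 89 with a library or experiment left out. All 4 of these counts were 0 without experiment 1 or without experiment 2, the 2 against NTC also without crSUGP1 replicate 2, and all 4 were highest without experiment 3. Of all 21071 genes tested, 279 against NTC and 319 against crXCR1 were lower at any fold with GC correction. With GC correction and block, the counts over all genes were 2701 and 2999. Counts over all genes are not given here for DESeq2, or at the fold threshold with GC correction. Departing genes (1) numbered 41 with the block, 2 and 79 with GC correction without and with it, and 0 to 11 with a library or experiment left out and it stayed at 1 when crXCR1 replicate 2 or 3 was left out. The count of genes with all crSUGP1 libraries below all controls (151) was 152 to 247 with fewer libraries. Non-overlap is easier to meet with fewer libraries, so a higher count there is not read as a stronger shift. The share over all genes with fewer libraries is not given here. What made the other counts differ was not tested.

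Named genes near 0 changed sign when 1 library was left out, and none of them passed the test with or without the block. Against NTC the ranges were -0.082 to 0.073 for ARHGEF18, -0.026 to 0.043 for CALR, -0.09 to 0.139 for CDC37 (-0.001 with the block), -0.158 to 0.005 for EIF3G, -0.064 to 0.272 for JUNB, -0.053 to 0.108 for SF3A2, -0.105 to 0.009 for SIN3B and -0.204 to 0.009 for TIMM44. Against crXCR1 they were -0.123 to 0.032 for ARHGEF18, -0.027 to 0.204 for CDC37, -0.156 to 0.027 for EBI3, -0.11 to 0.053 for EIF3G, -0.04 to 0.213 for JUNB, -0.087 to 0.077 for SF3A2 and -0.163 to 0.055 for TIMM44. Over 42 named genes in both comparisons, scaling by RLE changed 0 of 84 results, DESeq2 moved 26 past the threshold, and the block moved 52.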

Other observations

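Below the level required of members, 95 further genes of the stretch passed the minimum for testing. Their median log2 fold change was -0.236 against NTC, with 73 lower by estimate, and -0.292 against crXCR1, with 74 lower. No median is given here for genes of that level on other chromosomes. Those at 1 to 5 CPM there had medians of -0.039 and -0.071, so the values are not read as a stronger shift. By edgeR, 1 of them passed the adjusted threshold against NTC and 0 against crXCR1. The other 225 entries of the stretch were not tested.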
